A study of Mus musculus with 8 samples.

Results

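The condensin subunits are the 8 genes that encode the subunits of the condensin I and condensin II complexes, namely Smc2 and Smc4, Ncapd2, Ncapg and Ncaph, and Ncapd3, Ncapg2 and Ncaph2. They were chosen by gene symbol, and all 8 were found among the 25574 genes of the expression table. Transcript levels were measured by RNA-seq in mouse oocytes at nuclear envelope breakdown (NEBD), the stage at which the oocyte nucleus opens at the start of meiotic maturation. The oocytes came from CD1 mice 8 weeks old that had received 5 IU of PMSG, a gonadotropin that makes follicles grow, 46 h before collection in 100 µM IBMX, which holds oocytes in meiotic arrest. They were then cultured for 180 min without IBMX, and 0.1 mg/mL cycloheximide was given for 10 min to hold ribosomes on mRNA. Lysates of 200 pooled oocytes were spread over a sucrose gradient, and the top fraction was left out. The heavier fractions gave a polysomal (P) dataset, meant to hold transcripts bound by several ribosomes. The lighter fractions gave a non-polysomal (NP) dataset. The study could not exclude that heavy stored particles sediment with polysomes, so P need not hold only transcripts bound by ribosomes in translation. Each dataset had 4 libraries, replicates 1 to 4. All libraries share the strain, the stage and every treatment, and P and NP are told apart by the part of the gradient.

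Condensins are ring-shaped complexes that fold chromatin into compact chromosomes before cell division. Both are built on the same pair of ATPases, SMC2 and SMC4, which are closed by a kleisin subunit (NCAPH in condensin I, NCAPH2 in condensin II) carrying a pair of HEAT-repeat subunits (NCAPD2 and NCAPG, or NCAPD3 and NCAPG2). In somatic cells condensin II is mostly nuclear throughout the cell cycle, whereas condensin I reaches the chromosomes after the nuclear envelope has opened. A fully grown oocyte no longer transcribes, so at this stage it relies on stored mRNA, and whether an mRNA sits on polysomes is one measure of its use. In maturing oocytes part of that control runs through the cytoplasmic polyadenylation element (CPE), a short U-rich motif near the polyadenylation signal to which the protein CPEB1 binds.

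For this reason the annotated 3′ ends of the 8 transcripts are described first. The last 150 bases of each 3′UTR were searched on the transcript strand for the CPE letters TTTTAT and TTTTAAT and for the polyadenylation signals AATAAA and ATTAAA, in the GENCODE annotation of GRCm38. Smc4 has an annotated 3′UTR of only 97 bases, which was searched whole. TTTTAT was found in 4 of the 8 transcripts (Smc2, Ncapd2, Ncapg and Ncapd3), and TTTTAAT in none of them. The background was 18319 genes with a 3′UTR of at least 150 bases, a rule that Smc4 does not meet. Of these genes, 18.5% held TTTTAT, 6.73% held TTTTAAT and 23.5% held either. The sites are written 5′ to 3′ with the CPE letters in capitals, since they place the motif by its neighbours in 1 shared subunit, 2 condensin I subunits and 1 condensin II subunit:
Smc2, chr4:52488187-52488216, plus strand: tttgtttttgtaTTTTATatatagtttcac
Ncapd2, chr6:125168007-125168036, minus strand: taatgaataaatgtTTTTATagacttttaa
Ncapg, first site, chr5:45700459-45700488, plus strand: caaggaaacaccTTTTATttggataaaaat
Ncapg, second site, chr5:45700492-45700521, plus strand: ctaacatgaaatTTTTATtgtgcttctgct
Ncapd3, chr9:27095241-27095270, plus strand: ataattacaaatTTTTATtaaaagaggtgt

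The Smc2 motif ends 56 bases before the annotated transcript end. In Ncapd2 this distance is 10 bases, with an AATAAA just upstream of the CPE in the printed stretch. Ncapg has its motifs 70 and 37 bases before the end. In Ncapd3 the distance is 54 bases, and the last letters of its TTTTAT overlap an ATTAAA. A polyadenylation signal was found in 6 of the 8 transcripts, against 80.5% of the 18319 genes. The exceptions were Smc4 and Ncapg2, in which neither motif pair was found in the searched window. Ncaph and Ncaph2 held an AATAAA without a CPE:
Ncaph, chr2:127103830-127103859, minus strand: ttaataccccaaAATAAAactattctggca
Ncaph2, chr15:89372794-89372823, plus strand: gtgtctatttacAATAAAttgttctttata

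In these kleisin sites the capitals mark the polyadenylation signal. Letters in an annotated 3′ end do not show which end the oocyte uses or that a protein binds there.

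Levels are given as FPKM, fragments scaled for transcript length and library size, which is a share of the RNA within a library and not an amount per oocyte. A lower level can therefore come from less of a transcript or from more of other RNA in that library. It can also come from the split of a transcript between P and NP. These sources were not told apart. In pooled oocytes, fewer oocytes holding a transcript also cannot be told from less of it per oocyte. FPKM values of a gene rise in steps, each worth 1 counted unit. The library size behind the scaling, recovered from these steps, was 1299377 to 7594637 in NP and 2677946 to 4699328 in P. The shallowest library was NP replicate 2, and 3 counts, the limit that a count of 0 allows, are given below where a gene is listed at 0. Oocyte marker genes summed to 6310 to 12589 FPKM in the NP libraries and to 8373 to 39090 in the P libraries. Markers of granulosa cells, the somatic cells around the oocyte, reached a sum of 15.3 to 138 (NP) and 20.0 to 64.0 (P), with 5 of 11 (Foxl2, Amhr2, Inhba, Has2 and Ptx3) at 0 in every library. Cyp19a1 (at most 75.2 FPKM in NP and 62.6 in P), Nr5a2 (61.4 and 35.9) and Cyp11a1 (46.4 and 17.9) made up nearly all of this sum, at levels like those of the condensin subunits. Markers of stroma and blood reached 12.6 to 63.5 (NP) and 6.36 to 77.7 (P), with 4 of the 7 in the table (Col1a1, Dcn, Ptprc and Hba-a1) at 0 in every library and Pecam1, an endothelial gene, at 6.36 to 77.7 FPKM. Their part in the values of the condensin subunits was not tested. P replicate 1 stood apart from the other P libraries for several subunits, and values whose direction it decides are also given without it.

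Of the 8 subunits, 7 were detected in all 8 libraries and 5 exceeded 1 FPKM in each. In NP, Ncapd3 had the highest mean and was followed by Ncaph2, Ncapg, Smc4, Ncapg2, Ncaph, Ncapd2 and Smc2. In P the order by mean was Ncapg, Ncapd3, Ncapg2, Smc4, Ncaph2, Ncaph, Ncapd2 and Smc2. Neighbours in either order overlapped in their library values in all cases except Ncapd2 and Smc2. The order of the middle places was therefore not resolved by 4 libraries, and by median FPKM only 5 of the 8 subunits kept their place in P.

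**Figure D1:**
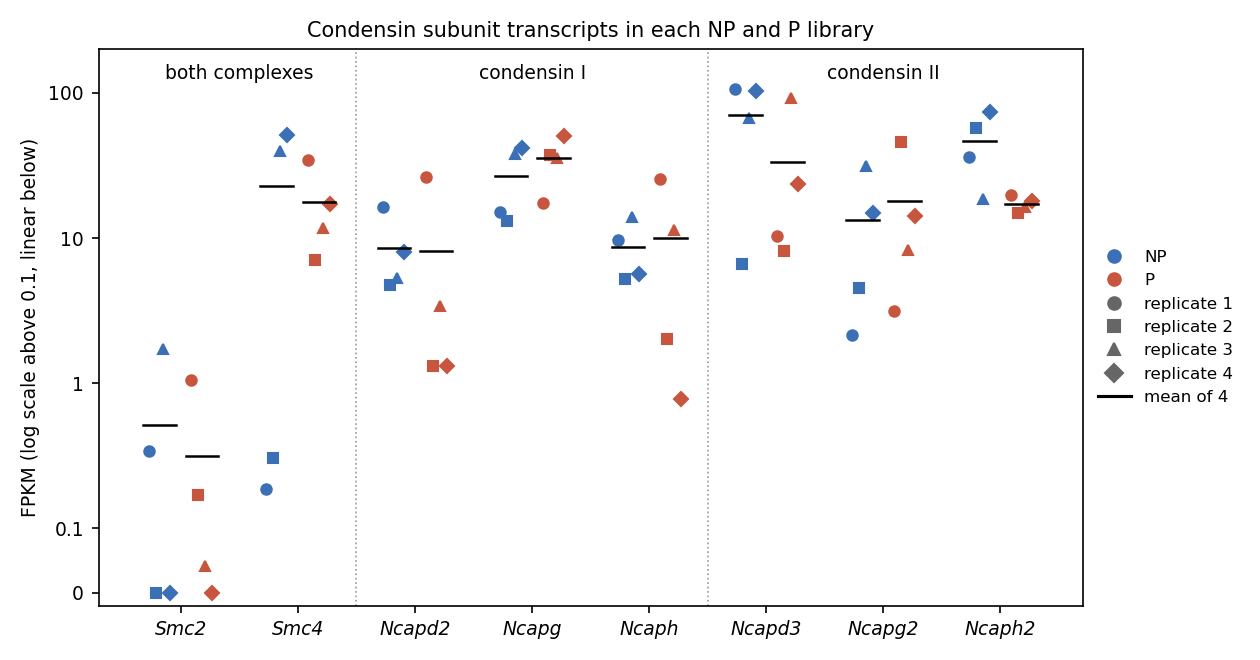
FPKM of each condensin subunit (vertical axis, logarithmic above 0.1 and linear below) in the 4 NP (blue) and 4 P (red) libraries, with 1 marker shape per replicate and a black bar at the mean of 4. Smc2 lies at the bottom in both datasets, and the P values of Ncaph2 sit close together between 14.9 and 19.9 FPKM while its NP values reach from 18.7 to 73.3.

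The shared ATPase genes were far apart in level. Smc2 was listed at 0.343, 0, 1.73 and 0 FPKM in NP replicates 1 to 4 and at 1.05, 0.171, 0.0411 and 0 FPKM in P replicates 1 to 4. The libraries at 0 allow up to 0.421 FPKM in NP replicate 2, 0.0721 in NP replicate 4 and 0.205 in P replicate 4. High and low values occurred in both datasets, which overlapped throughout. Only 106 counted units stood behind Smc2 in the 8 libraries together, 69 of them in NP replicate 3, so its level was known only coarsely. It was the lowest of the 8 subunits in 7 of 8 libraries. The log2 fold change of P over NP, on the scale of log2(FPKM + 1), was −0.14 for Smc2 (95% interval −0.97 to 0.70, limma adjusted p = 0.886).

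Smc4, its ATPase partner in both complexes, stood at 0.187, 0.306, 40.1 and 51.0 FPKM in NP and at 34.7, 7.00, 11.8 and 17.3 FPKM in P. The NP libraries fell into a low and a high pair, from 2 to 1948 counted units, and all P libraries lay between these pairs. For Smc4 the highest NP value was 273 times the lowest, against 4.96 times in P. Its mean was higher in NP (22.9 ± 26.5, SD, n = 4) than in P (17.7 ± 12.1), whereas the log2 fold change was 1.08 in favour of P (SE 1.24, limma adjusted p = 0.726), so the direction depended on the scale. The log2 fold change of Smc4 ranged from 0.19 without NP replicate 1 to 2.01 without NP replicate 4, so single NP libraries decided its size. Within a library Smc4 exceeded Smc2 by 23.2-fold in NP replicate 3 and by 33.1-, 41.0- and 286-fold in P replicates 1 to 3. In P replicate 3 a single counted unit of Smc2 set that ratio. NP replicate 1 was the exception with a ratio of 0.544.

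The ATPase genes of the related SMC complexes were set beside Smc2 and Smc4 after their values had been seen. These were Smc1a, Smc1b and Smc3 of cohesin, the ring that holds sister chromatids together, and Smc5 and Smc6 of the SMC5/6 complex, which acts in DNA repair. Mean levels were 2.59 FPKM in NP and 0.358 in P for Smc1a, 1.46 and 0.746 for Smc1b, 4.51 and 5.20 for Smc3 (0.508 in P without replicate 1), 1.51 and 0.464 for Smc5, and 10.9 and 12.7 for Smc6. Without NP replicate 4 the NP mean of Smc1b was 0.377 FPKM, below that of P. Smc4 exceeded Smc1b in 8 of 8 libraries, Smc5 in 7, Smc1a and Smc3 in 6 and Smc6 in 5. Smc2 exceeded Smc5 in 4 of 8 libraries, Smc1b in 2, Smc1a in 1, and Smc3 and Smc6 in 0.

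Among the condensin I subunits, Ncapg, a HEAT-repeat subunit, had the highest level in 6 of 8 libraries. Its values were 15.0, 13.2, 37.7 and 41.9 FPKM in NP and 17.5, 37.5, 35.8 and 50.5 FPKM in P. The highest value was in P and the lowest in NP, but the ranges overlapped widely. Ncapg varied least of the 8 over all libraries, with a coefficient of variation of 44.8%. Its log2 fold change was 0.46 (SE 0.66, limma adjusted p = 0.775), with an interval from −0.97 to 1.88, and stayed between 0.19 and 0.75 with any 1 library left out. The Ncapg exons share 944 bases with those of Lcorl on the opposite strand, and the library kit does not mark strand, so reads of the pair cannot be told apart there.

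Ncapd2, the other HEAT-repeat subunit of condensin I, stood at 16.4, 4.77, 5.29 and 7.95 FPKM in NP. In P it stood at 26.4, 1.31, 3.38 and 1.32 FPKM. P replicate 1 exceeded every NP library, and the 3 remaining P libraries lay below every NP library. The means of 8.59 ± 5.36 and 8.11 ± 12.2 FPKM (SD, n = 4) were close, and the log2 fold change was −0.78 (SE 0.97, limma adjusted p = 0.743). Without P replicate 1 it was −1.60, still short of the threshold. Ncapd2 exons contain the small RNA gene Scarna10, with 237 shared bases on the same strand.

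Ncaph, the kleisin of condensin I, followed a like course with 9.75, 5.18, 14.1 and 5.63 FPKM in NP and 25.6, 2.03, 11.4 and 0.780 FPKM in P. P replicate 1 was again above all NP libraries, while P replicates 2 and 4 were below them. Ncaph rested on as few as 9 counted units in P replicate 4. Its mean was slightly higher in P (9.95 against 8.66 FPKM), whereas its log2 fold change was −0.48 (SE 0.96, limma adjusted p = 0.836), so here too the direction depended on the scale. Without P replicate 1 the P mean was 4.73 FPKM, below that of NP, and the log2 fold change was −1.15. Across the 8 libraries log2(FPKM + 1) of Ncaph and Ncapd2 correlated at r = 0.80, whereas Ncapd2 and Ncapg gave r = −0.65. These values describe only 8 libraries, of shared origin but unequal depth, and carry no test.

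The condensin II subunits included the highest levels in NP. Ncapd3, the HEAT-repeat counterpart of Ncapd2, stood at 106, 6.58, 66.7 and 104 FPKM in NP. In P its levels were 10.3, 8.17, 92.5 and 23.7 FPKM. A high and a low value occurred in each dataset, with NP replicate 2 lowest and P replicate 3 above NP replicates 2 and 3. The mean of Ncapd3 was 70.7 ± 46.4 FPKM in NP and 33.7 ± 39.8 FPKM in P (SD, n = 4). The log2 fold change was −1.15 with an interval from −3.20 to 0.91 (limma adjusted p = 0.661). With single libraries left out it ranged from −2.05 without NP replicate 2 to −0.72 without P replicate 2.

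Ncapg2, the second HEAT-repeat subunit of condensin II, stood at 2.13, 4.54, 31.3 and 15.0 FPKM in NP and 3.16, 46.1, 8.31 and 14.1 FPKM in P. Replicate 1 was the lowest library of both datasets, and the highest value was in P replicate 2. The log2 fold change was 0.40 (SE 0.97, limma adjusted p = 0.866), and it turned to −0.22 without P replicate 2 and to −0.14 without NP replicate 1.

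Ncaph2, the kleisin of condensin II, came nearest to a difference. Its levels were 36.0, 57.7, 18.7 and 73.3 FPKM in NP and 19.9, 14.9, 16.3 and 17.9 FPKM in P. P replicates 2 to 4 lay below all NP libraries, and P replicate 1 exceeded only NP replicate 3, so P was lower in 15 of 16 cross comparisons. P was also below NP in each of the 4 pairs of libraries with the same number. The mean was 46.5 ± 24.0 FPKM in NP and 17.2 ± 2.15 FPKM in P (SD, n = 4), a ratio of 0.371. The log2 fold change was −1.22 with a 95% interval from −2.59 to 0.15, and the unadjusted p of 0.0769 in limma became 0.533 after adjustment over all tested genes (0.455 with the replicate number as a block). The spread also differed, with a coefficient of variation of 51.7% in NP and 12.5% in P, on 315 to 2338 and 200 to 392 counted units, respectively. When each library was scaled to one median, the log2 fold change of Ncaph2 was 0.064. The median of all tested genes was then 0.21, so Ncaph2 still lay below it. The Ncaph2 exons overlap those of Sco2 and, by 535 bases, those of Tymp, both on the opposite strand, so part of its signal cannot be assigned without strand.

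Testing all genes together, limma called 0 of the 8 subunits at an adjusted p below 0.1, against a background of 0.021% (3 of 14292 tested genes). The 3 genes called were all higher in NP and none was a condensin gene. At an unadjusted p below 0.05 the count was 0 of 8 subunits, where the background was 9.95%, and at an unadjusted p below 0.1 it was 1 of 8 (Ncaph2), where the background was 18.1%. No subunit had P and NP libraries without overlap, a pattern found in 6.28% of tested genes (NP above P in 5.92% and P above NP in 0.357%). With P replicate 1 left out, all NP libraries of Ncaph2 and Ncapd2 lay above all P libraries, a pattern that then covered 11.2% of tested genes. With NP replicate 3 left out this held for Ncaph2 alone, against 8% of tested genes. The mean was lower in P for 5 of 8 subunits (64.2% of tested genes) and the log2 fold change was negative for 5 of 8 (71.4%). The median log2 fold change of the 8 subunits was −0.31 and that of all tested genes was −0.39.

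The intervals were wide, which limits what 4 libraries against 4 can show. They reached from −3.20 at the lower end of Ncapd3 to 3.74 at the upper end of Smc4, and for 4 of the 8 subunits (Smc4, Ncapd2, Ncaph and Ncapg2) the interval held more than 1 log2 unit in both directions. The direction also depended on the scaling between libraries. Quantile normalization moved the median log2 fold change of all tested genes to −0.02, and scaling to one median moved it to 0.21. Under quantile normalization Smc2, Ncapd2 and Ncaph turned positive (0.33, 0.091 and 0.31), and only Ncapd3 (−0.78) and Ncaph2 (−0.80) stayed negative. Scaled to one median, all 8 subunits were positive, from 0.054 for Smc2 to 2.09 for Smc4. In each of the 3 scalings Smc4, Ncapg and Ncapg2 were positive, and above the median of all tested genes. Ncapd3 and Ncaph2 lay below that median in each of the 3 scalings, although their sign changed.

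**Figure D2:**
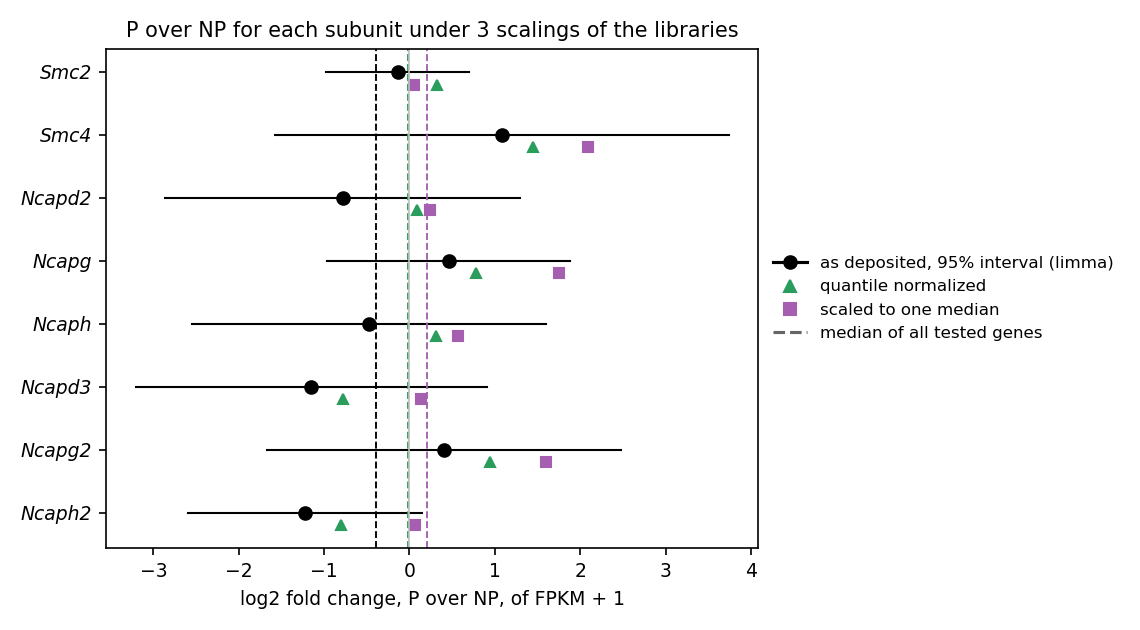
Log2 fold change of P over NP (horizontal axis, FPKM + 1) for each subunit, with black points and 95% limma intervals for the values as deposited, green triangles after quantile normalization and purple squares after scaling to one median. Dashed lines give the median of all tested genes in the same colours, and every black interval spans 0.

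A ratio of FPKM values within a library does not change when the whole library is multiplied by a factor. The condensin II share was taken as the summed FPKM of Ncapd3, Ncapg2 and Ncaph2 over that of all 6 complex-specific subunits. It was 77.8, 74.9, 67.1 and 77.6% in NP replicates 1 to 4 and 32.4, 62.9, 69.8 and 51.4% in P replicates 1 to 4. Of the P libraries, replicates 1, 2 and 4 lay below all NP libraries and replicate 3 lay above NP replicate 3, so the datasets overlapped. The mean share was 74.3 ± 4.98% in NP and 54.1 ± 16.4% in P (SD, n = 4), a difference of −20.2 percentage points. Without P replicate 1, the lowest library, the difference was −13.0 points. Taken instead as the difference of mean log2(FPKM + 1) between the complexes, P differed from NP by −0.39, and by 0.28 without P replicate 1. Because of the added 1, this second measure does depend on the scaling of a library. As a score over members the share was given no test.

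Different subunits made up the share in different libraries. Ncapd3 alone was 73.5% of the condensin II sum in NP replicate 1 and 79.0% in P replicate 3, whereas Ncaph2 made up 83.8% in NP replicate 2 and Ncapg2 66.7% in P replicate 2. On the condensin I side, Ncapg made up 91.8% and 96.0% of the sum in P replicates 2 and 4, while Ncapd2 led with 39.7% in NP replicate 1 and 38.0% in P replicate 1. The kleisins alone gave a smaller gap, since Ncaph2 was 80.1 ± 16.7% of the Ncaph and Ncaph2 sum in NP and 71.6 ± 24.5% in P. Without P replicate 1 the kleisin share in P was 80.9% and the gap turned to 0.788 points. Between the highest and the lowest of the 6 subunits the ratio ranged from 8.36 in P replicate 1 to 64.7 in P replicate 4, although the proteins assemble in equal numbers. P replicate 1 held the highest P value of 5 of the 8 subunits (Smc2, Smc4, Ncapd2, Ncaph and Ncaph2) and the lowest of 2 (Ncapg and Ncapg2). NP replicate 2, the shallowest library, held the lowest NP value of 5 subunits.

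**Figure D3:**
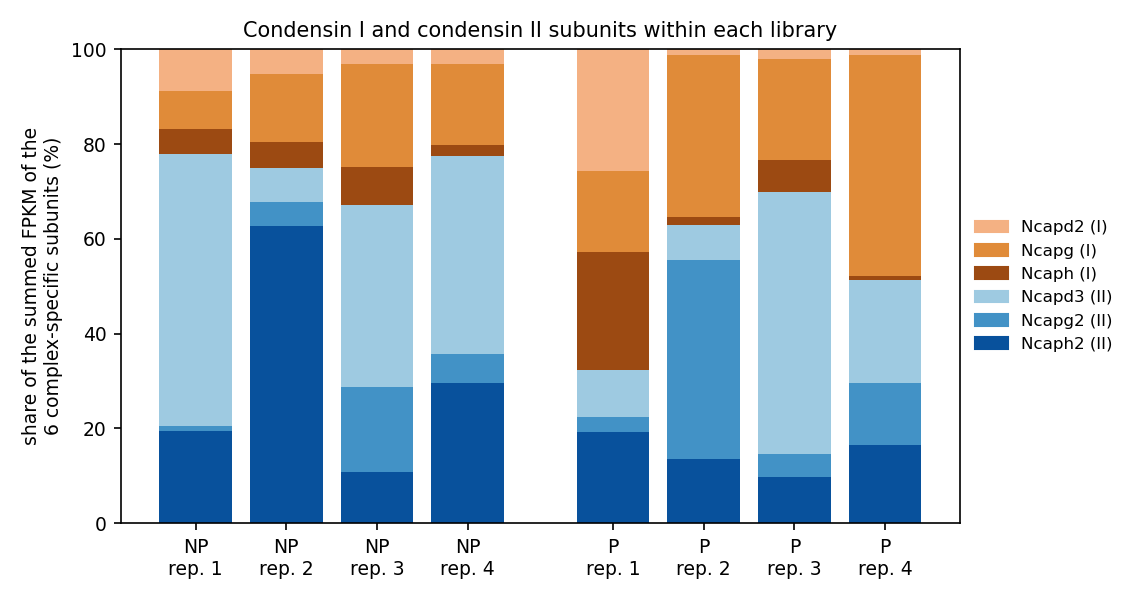
Share of each complex-specific subunit in their summed FPKM (vertical axis, %) for every NP and P library, with condensin I in orange and condensin II in blue. The blue part covers 67.1 to 77.8% of the NP bars and 32.4 to 69.8% of the P bars.

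Outside the 8 subunits, 1 gene was named for each subunit with a mean above 1 FPKM as the one whose log2(FPKM + 1) followed it most closely over the 8 libraries, out of 6391 genes. It was Hsp90aa1 for Smc4 (Pearson r = 0.94), Glt8d1 for Ncapd2 (0.96), Mfap3 for Ncapg (0.95) and Rcbtb2 for Ncaph (0.98). For condensin II it was Celsr1 for Ncapd3 (0.96), Parp4 for Ncapg2 (0.94) and Alkbh3 for Ncaph2 (0.98). Each of these r values is the highest of 6391 over only 8 libraries, so it is high by selection and carries no test. No condensin subunit had the same closest gene as another. Among the subunits themselves the highest value was r = 0.80 for Ncaph with Ncapd2, followed by r = 0.79 for Ncapg with Ncapg2, which belong to different complexes. The kleisin Ncaph2 reached at most r = 0.35 with another subunit.

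Genes that work with condensin on chromosomes were described in the same way. Of 11 such partners (among them topoisomerases, chromokinesins and Mki67), 0 were called and 0 had datasets without overlap, with a median log2 fold change of −0.17. Over all tested genes these values were 0.021%, 6.28% and −0.39. The most abundant were the chromokinesin genes Kif22 (321 FPKM in NP and 306 in P) and Kif4 (39.1 and 32.7), Phf8, a histone demethylase gene (32.7 and 37.0), and Mcph1, which encodes microcephalin, an inhibitor of condensin II (28.7 and 25.2). Kinases and cyclins known to act on condensin gave 0 of 10 called, with a median of −0.13. Ccnb1, the cyclin partner of CDK1, stood at 1287 FPKM in NP and 840 in P, Aurkc at 487 and 643 (431 without P replicate 1), Plk1 at 413 and 401 and Aurka at 228 and 213. The means of these 4 exceeded that of every condensin subunit in both datasets.

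Cohesin gave 0 of 17 called, against 0.021% of all tested genes. Of the 17, 2 genes (11.8%, against 9.95% of tested genes) had an unadjusted p below 0.05, and the median log2 fold change was −0.015. One of the 17, Mau2, which encodes the partner of the cohesin loader NIPBL, had all NP libraries above all P libraries, as did 5.92% of tested genes (131 ± 48.3 against 38.0 ± 16.5 FPKM, SD, n = 4), with a log2 fold change of −1.79 and a limma adjusted p of 0.407. The kleisin gene Rad21 stood at 68.8 FPKM in NP and 29.8 in P, and Sgol1, a protector of centromeric cohesion, at 6.92 and 28.1, the latter falling to 4.98 without P replicate 1. The cohesin list named 18 genes, but Sgol2 was searched as Sgol2a and missed. Its means were 2.45 FPKM in NP and 3.39 in P, with a log2 fold change of 0.60 (limma adjusted p = 0.762). It is not part of the counts of this list or of the checks with libraries left out. Wapal, which releases cohesin, stood at 12.9 and 13.0 (12.8 without P replicate 1). Of the SMC5/6 complex, 0 of 6 genes were called, against 0.021% of all tested genes, and the median was −0.44. Its most abundant members were the subunit genes Nsmce1 (226 FPKM in NP and 91.7 in P), Nsmce4a (57.7 and 71.7), Nsmce2 (25.0 and 32.0, the latter 24.1 without P replicate 1) and Smc6. For Kif22, Phf8, Mcph1, Aurkc, Plk1, Aurka, Sgol1, Wapal, Nsmce2, Smc6, Smc1b and Smc3 the order of the P and NP means turned when at least 1 of the 8 libraries was left out.

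**Figure D4:**
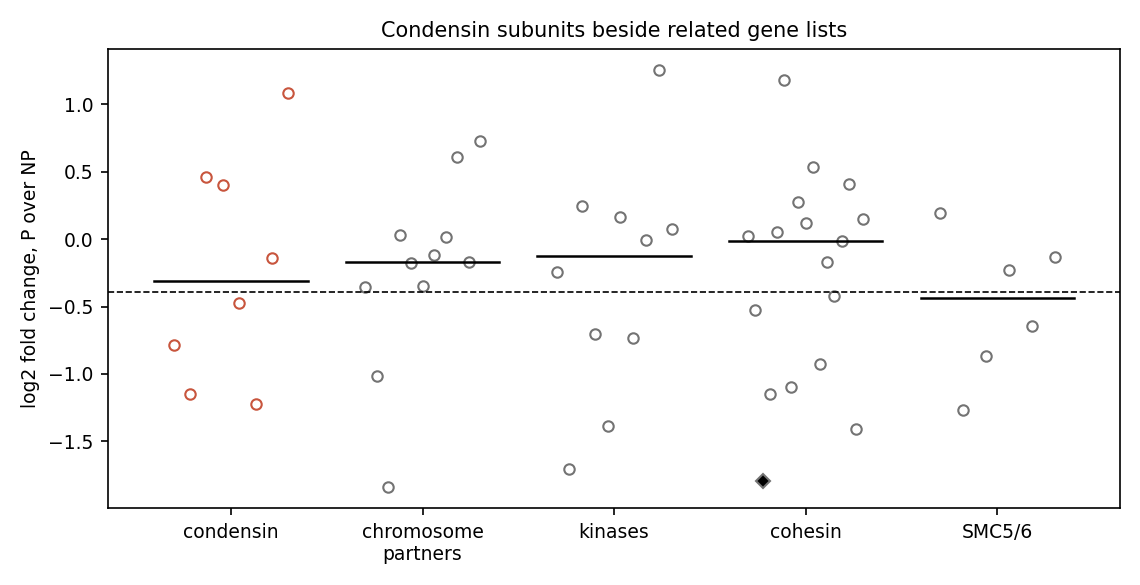
Log2 fold change of P over NP (vertical axis, limma on log2(FPKM + 1)) for the 8 condensin subunits (red circles) and the genes of 4 related lists (grey circles), with the median of each list as a bar. The dashed line is the median of all tested genes at −0.39, and the filled diamond is Mau2, the only gene shown whose NP and P libraries do not overlap.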

How the data were processed

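RNA-seq libraries of 4 P and 4 NP pools were analysed, with dataset and replicate number taken from the sample titles. Per the labels and methods, the authors used Trim Galore 0.4.1 for trimming, HISAT2 2.0.5 for mapping (GRCm38) and SeqMonk for quantification, and deposited FPKM values, normalized for gene length and library size. The authors' mean columns differed by at most 0.000575 FPKM from means computed here, and their ratio, fold change and p value columns were not used.

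FPKM values were used as deposited. The comparison of P with NP was a 2-sided limma test (version 3.58.1, R 4.3.3, lmFit and eBayes with trend) on log2(FPKM + 1). Genes above a mean of 0.1 FPKM in either dataset entered it, p-values were adjusted over all of them by Benjamini-Hochberg, and the threshold was 0.1. A pseudocount of 1 understates changes of low genes. The fit was tested on simulated data. The study describes the 4 gradients as biological replicates of pooled oocytes, without saying whether equal numbers in P and NP mean the same gradient.

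Library totals were recovered from FPKM steps: with annotated exon lengths, 80.9 to 82.5% of values per library were whole within 0.01. Steps of Smc2, Ncaph and Ncaph2 used the annotated length, and those of the other 5 the shortest length between 100 and 30000 bases giving whole steps. Amplified reads carry no molecular identifiers, so counting limits cover counting error only.

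Named were all members, and from the lists each called gene, each gene without overlap and the 4 most abundant per list. For oocyte and other cell types the summed marker levels and the markers at 0 were named. Cyp19a1, Nr5a2, Cyp11a1 and Pecam1 were added for their high levels, and Sgol2 because its list missed it. The closest gene was sought among those above 10 FPKM. The members and lists were chosen with earlier results of these data known. The alternatives were other pseudocounts, filters and scalings, no trend, a replicate block and leaving out each library. Sites were read from GENCODE M21 transcripts and compared with the GRCm38 genome.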

Additional observations from a re-analysis of the deposited data

Results flagged for a closer look

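In 2 of the 18 groups of 4 values examined (the 8 subunits and the condensin II share in each dataset), 1 library stood far from the others. Its gap to the next value was more than 0.829 of the range of the 4 values. How often this occurs by chance is not known here. FPKM values need not be normally distributed, and the share is built from the same subunits. Both were P replicate 1. Smc2 stood there at 1.05 FPKM, against 0 to 0.171 in the other P libraries, on 27 counted units. Ncapd2 stood there at 26.4 FPKM, against 1.31 to 3.38 in the other P libraries, on 561 counted units. No cause was tested for either value.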

How the results depend on the processing

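The number of subunits called was 0 under every alternative run. Of 127 alternative log2 fold changes of the 8 subunits, 114 kept their direction, 13 reversed and 0 passed the threshold, with a lowest limma adjusted p of 0.382. Those reversed were Smc2 with a pseudocount of 0.01 (0.17), under quantile normalization (0.33) and with one median (0.054), Ncapd2 and Ncaph under quantile normalization (0.091 and 0.31) and with one median (0.24 and 0.56), and Ncapd3 and Ncaph2 with one median (0.13 and 0.064). Leaving out single libraries gave −0.37 to 0.19 for Smc2 (reversed without NP replicate 3), −1.15 to 0.15 for Ncaph (reversed without P replicate 4) and −0.22 to 0.98 for Ncapg2 (reversed without NP replicate 1, at −0.14, and without P replicate 2). Smc2 was not tested with a filter of mean FPKM above 1. Over all genes, the count of 3 calls became 5 with a pseudocount of 0.1 or a mean above 1 FPKM, 0 without a filter, under quantile normalization or with one median, and 20 without the trend. Single libraries left out gave 0 to 5 calls, 0 without any NP library or P replicate 3 and 5 without P replicate 1. The cause of these changes was not tested.

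The study took P and NP fractions from the same gradients, but no label says that a number marks 1 gradient. The main fit therefore used no pairs and ignored any pairing by gradient. Same-numbered NP and P libraries deviated from their dataset means with correlations of 0.139, 0.0518, 0.251 and 0.155 over 11374 genes. Of the 8 libraries, 7 correlated best with their own number. The exception was NP replicate 2, at 0.136 with P replicate 1. With the replicate block the count over all genes was 1 and that of subunits 0.

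The condensin II share differed by −25.5 to −13.0 points with single libraries left out, by −8.51 for kleisins alone (−16.6 to 0.788 with single libraries left out) and by −0.39 as a difference of mean log2 values (−0.70 to 0.28). Both turned without P replicate 1 alone, in checks added after the data were seen. By median FPKM, 5 subunits kept their place in the order of P. The count of subunits with NP above P, chosen for this check after the data were seen, was 0 to 2. Counting error was large for Smc2 in most libraries and for Smc4 in NP replicates 1 and 2, at 3 and 2 counted units.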
